A study of Sus scrofa with 80 samples.

Results

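Ion and acid-base transporters were followed in Göttingen minipigs across tissues and ages. They were defined by gene name, with earlier results of these data known. The set holds all genes on the array named for the families SLC4, SLC8, SLC9, SLC12, SLC20, SLC23, SLC24, SLC26 and SLC34. It also holds those named for the Na,K-ATPase (ATP1A and ATP1B), the V-ATPase (ATP6V) and the epithelial sodium channel (SCNN1), with SLC12A1 and SLC34A1 left out. This gave 69 of the 23736 genes on the array. ATP6V1F lacked a value on 1 of the 80 arrays and lay at 15.88 log2 units or above on the other 79, near the top of the scale, so 68 were tested. Among the 68, 3 are not carriers themselves but carry a family name: SLC9A3R1 and SLC9A3R2 are adaptors that hold transporters at the apical membrane, and SLC4A1AP is named for its binding to the red cell anion exchanger.

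The Na,K-ATPase sits on the basolateral side of epithelial cells and in the membrane of neurons, and the sodium gradient it builds drives most of the other carriers described here. The V-ATPase pumps protons into lysosomes and vesicles in all cells and, with subunits of its own, across the surface of intercalated cells of the kidney and of osteoclasts. The SLC4, SLC9 and SLC26 carriers move bicarbonate, protons and other anions, the SLC12 carriers move chloride with sodium or potassium, the SLC8 and SLC24 carriers extrude calcium, and SLC23 carriers take up ascorbate.

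Total RNA of kidney, liver, spleen, bone marrow, cerebellum, hypothalamus and cerebral cortex was hybridised to 1-color arrays. Each of these tissues was taken from 1 female and 1 male at each of 4 ages, namely 1 week, 4 weeks, 2 months and 4 months, which gave 8 samples per tissue and 56 in all. Testis was measured at these ages and ovary likewise, with 1 sample per age, and every tissue except ovary also in 1 male of 2 years. All animals were Göttingen minipigs of 1 breeder with no treatment given in the labels, but the 2-year male had been moved to another site as a juvenile, ate another feed and was killed with another pentobarbital product, and its arrays filled 2 of the 11 slides on their own, so age, animal, husbandry and slide cannot be told apart at 2 years. Male and female were the only repeats, so each p-value below measures the spread between these samples, and sex and individual cannot be told apart. The labels used here do not state which tissues came from the same animal. In bulk tissue, fewer cells of a type and less RNA per cell cannot be told apart.

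Per array, gene spots had a median intensity of 27 to 89, and between 57.7% and 74.7% of genes were well above background by the scanner software's own test. Levels are given in log2 units after quantile normalization, and a level of one gene is not set against that of another. The tissues carried the markers of their labels: against the other tissues, LRP2 of the proximal tubule was 8.69 log2 units higher in kidney, ALB 5.84 higher in liver, MARCO of splenic macrophages 6.07 higher in spleen, the carbonic anhydrase CA1 of red cells 8.41 higher in bone marrow, and SYT1 of neurons 10.32 higher in the brain regions. The 2-year bone marrow stood apart, since the mean level of 6 erythroid genes was 5.61 there and between 9.90 and 10.8 in the bone marrow samples up to 4 months.

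Of the 68 transporters, 31 (45.6%) were well above background in all 56 samples, beside 42.0% of all genes. Another 6 (8.82%) were so in none, beside 9.57% of all genes: ATP6V1G1, SLC26A5, SLC26A9, SLC4A1AP, SLC4A3 and SLC9A2, with tissue means between 1.85 and 3.57. The remaining 31 were above background in some samples only. The transporters varied between tissues. The difference between the highest and the lowest tissue mean had a median of 2.15 log2 units over the 68 and 1.29 over all genes, and 38 of the 68 (55.9%) differed by at least 2 log2 units, beside 31.7% of all genes. The median range was 7.13 for the 3 ascorbate transporters, 5.54 for the 4 calcium exchangers and 5.24 for the 7 SLC4 carriers, against 1.05 for the 7 sodium-proton exchangers. In 1 fit over the 56 samples, 44 of the 68 passed an adjusted p of 0.05 with a difference of at least 1 log2 unit in at least 1 of the 5 tissue contrasts described next, or 64.7%, beside 42.8% of all genes.

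**Figure D1:**
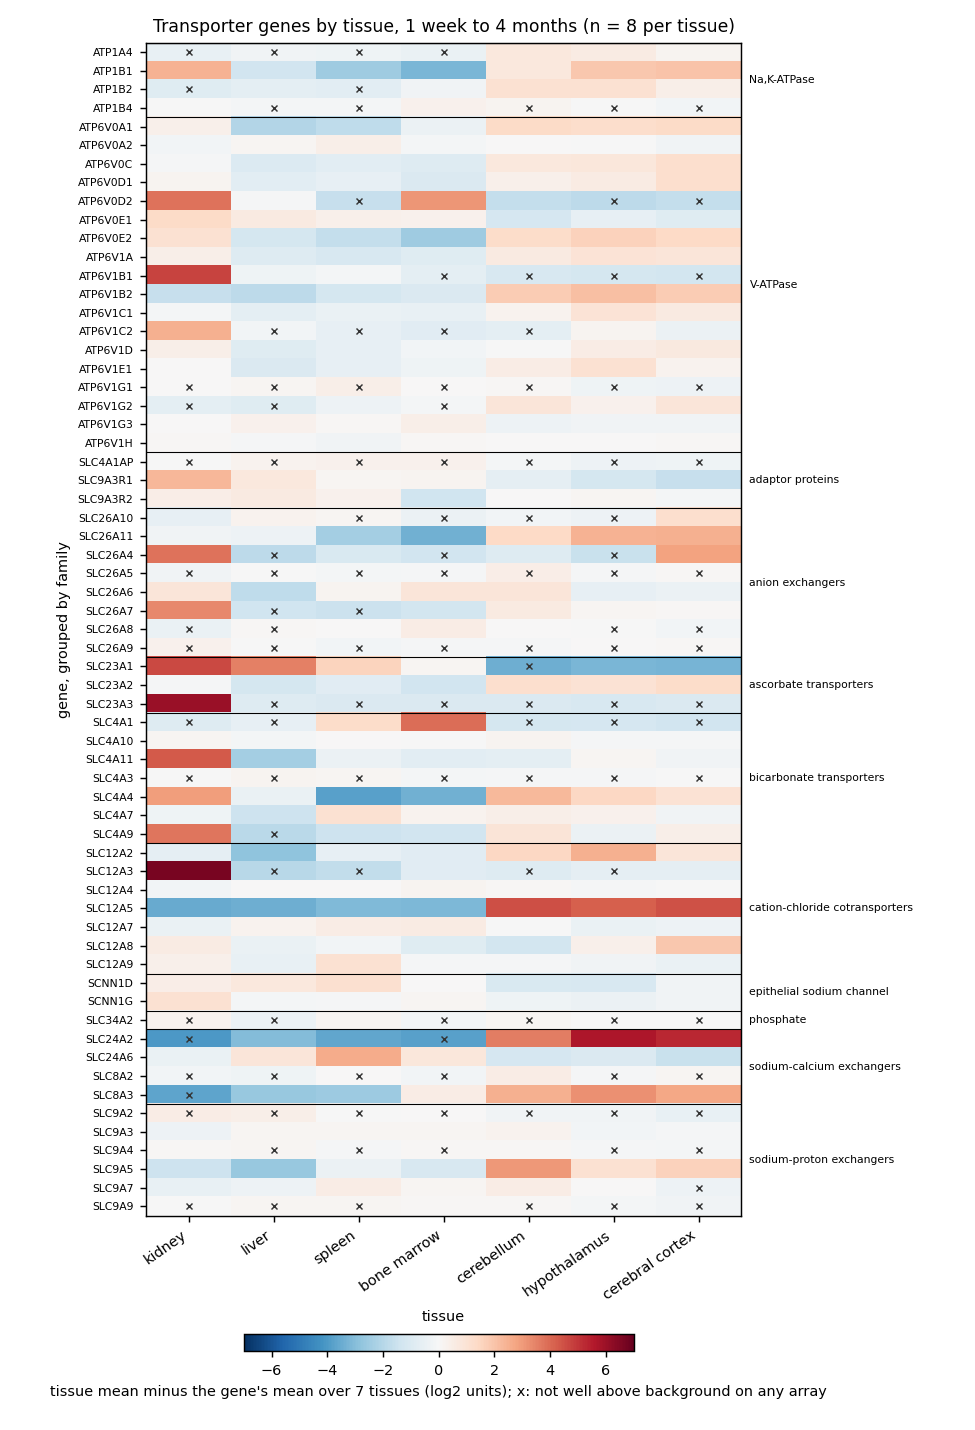
Mean level of 63 of the transporters in 7 tissues (columns, n = 8 samples each), as the log2 difference from the gene's own mean over the 7 tissues, with genes in rows by family. A cross marks a tissue where no array was well above background. SLC12A3, SLC23A3, ATP6V1B1 and SLC23A1 are darkest red in kidney, and SLC12A5, SLC24A2 and SLC8A3 are red in the 3 brain regions.

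Kidney had higher levels of the salt carrier SLC12A3, of several bicarbonate carriers and of the proton pump subunits ATP6V1B1 and ATP6V0D2. The calcium exchangers SLC24A2 and SLC8A3 and the chloride extruder SLC12A5 were lower than in the mean of the other tissues. That mean includes the brain regions, where they were high. Against the mean of the other 6 tissues, 17 of the 68 transporters were higher in kidney and 9 were lower, while 8.92% of all genes were higher and 8.96% lower. The median difference was 0.03 log2 units over the 68 and −0.06 over all genes, and 38.2% of the 68 differed by at least 1 log2 unit in either direction, beside 17.9% of all genes.

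SLC12A3, the thiazide-sensitive sodium-chloride cotransporter of the distal convoluted tubule, had a lowest, median and highest level of 10.61, 11.35 and 12.18 in the 8 kidney samples. Its levels in the 48 samples of the other tissues ran from 2.15 to 4.36, with 4 of them well above background. The difference was 7.78 ± 0.15 log2 units (SE, limma, adjusted p = 7.3e-43), and the groups did not overlap.

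SLC23A3, an orphan of the ascorbate transporter family, had kidney levels of 8.82, 9.79 and 10.78 (lowest, median, highest) and was not well above background on any of the 48 other arrays. It was at least 98.9-fold higher in kidney. ATP6V1B1, the B subunit of the proton pump on intercalated cells, had 7.76, 9.03 and 9.84 in kidney and between 2.54 and 4.75 elsewhere, a difference of 5.49 ± 0.14. SLC23A1, which takes up ascorbate across epithelia, had 10.48, 11.61 and 12.07 in kidney. It was also high in liver, between 10.08 and 10.72, so the kidney and liver samples overlapped although kidney was 5.41 ± 0.16 above the mean of all other tissues.

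Others that were higher in kidney fall into the same roles. Among bicarbonate and anion carriers they were SLC4A11 (4.98), SLC26A4, the chloride-bicarbonate exchanger pendrin (4.44), SLC4A9 (4.35), SLC26A7 (3.91) and SLC4A4, the basolateral sodium bicarbonate cotransporter (3.42), each as the log2 difference from the other tissues. The 4 probes of SLC26A7 gave differences between 1.20 and 6.45. Among proton pump subunits they were ATP6V0D2 (4.42), ATP6V1C2 (2.88), ATP6V0E1 (1.54) and ATP6V0E2 (1.27). All 4 probes of ATP6V0E2 carry an added mark, "Xhyb", that the sources used here do not explain. The sodium pump subunit ATP1B1 was higher by 2.82, the adaptor SLC9A3R1 by 2.74, and SCNN1G, the gamma subunit of the epithelial sodium channel, by 1.25. The probes of SCNN1G ranged from 0.18 to 2.33.

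Some of these were also high in a single other tissue. SLC26A4 had 6.18, 7.37 and 7.86 (lowest, median, highest) in cerebral cortex and 7.48, 8.00 and 9.47 in kidney, and at most 3.99 in the remaining 5 tissues. ATP6V0D2 had 5.66, 7.81 and 9.06 in bone marrow and 8.21, 8.33 and 8.98 in kidney, so that these groups overlapped.

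The 9 that were lower in kidney included both calcium exchangers SLC24A2 and SLC8A3, which were not well above background on any kidney array and were at least 19.4-fold and at least 13.3-fold higher in the mean of the other tissues. All 4 probes of SLC8A3 carry the mark "Xhyb" too. SLC12A5, the potassium-chloride cotransporter of neurons, had 2.54, 3.38 and 4.42 in kidney, with 3 of 8 arrays well above background, and was lower there by 4.13 ± 0.11. SLC24A2 had means of 2.83 in kidney and 3.03 to 3.78 in liver, spleen and bone marrow. SLC12A5 had 3.51 in kidney and 3.63 to 3.97 in the same tissues. SLC8A3 had 2.52 in kidney, 3.59 in liver and 3.68 in spleen, but 6.75 in bone marrow. Much of these differences thus came from the brain regions, which also enter the liver, spleen and bone marrow contrasts below. ATP6V1B2, SLC9A5, SLC4A1 and ATP1B2 were lower as well, the last pair not well above background on any kidney array.

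Both SLC9A3, the sodium-proton exchanger of the proximal tubule, and SLC4A1, whose short form serves the intercalated cell, had low averaged levels in kidney on this array. SLC9A3 had 2.76, 3.40 and 3.70 in kidney, where 4 of 8 arrays were well above background, and tissue means between 3.52 and 3.95 elsewhere. Its 2 probes had means of 2.25 and 5.21 and hardly followed each other (correlation 0.07), so this averaged level says little about SLC9A3 in kidney. SLC4A1 had 2.41, 2.71 and 3.04 in kidney and was not well above background on any of the 8 arrays.

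Partners of the transporters were counted on lists of related genes. Of 9 carbonic anhydrases, which supply protons and bicarbonate, 4 were higher in kidney and 2 lower, with CA4 higher by 4.32 and CA12 by 3.32. Of 10 partners of the proton pump and intercalated cell genes, 3 were higher and 1 lower: FOXI1, the regulator of intercalated cells, by 5.96, the ammonia channel RHCG by 5.39 and the proton-potassium pump ATP12A by 4.27. Of 11 chloride and potassium channels of the tubule, 6 were higher and none lower, among them KCNJ1 (8.37), which returns potassium to the lumen. Of 9 genes that control salt transport, 5 were higher and none lower, led by HSD11B2 (7.74), which shields the mineralocorticoid receptor from cortisol. Of 5 genes of the FXYD family of sodium pump regulators, 1 was higher and 1 lower: FXYD2, the gamma subunit of the kidney pump, by 7.72, and FXYD6 (−2.14). Of 10 genes of phosphate and calcium control, 4 were higher, led by KL (4.87), and 1 was lower, ATP2B4 (−1.42).

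**Figure D2:**
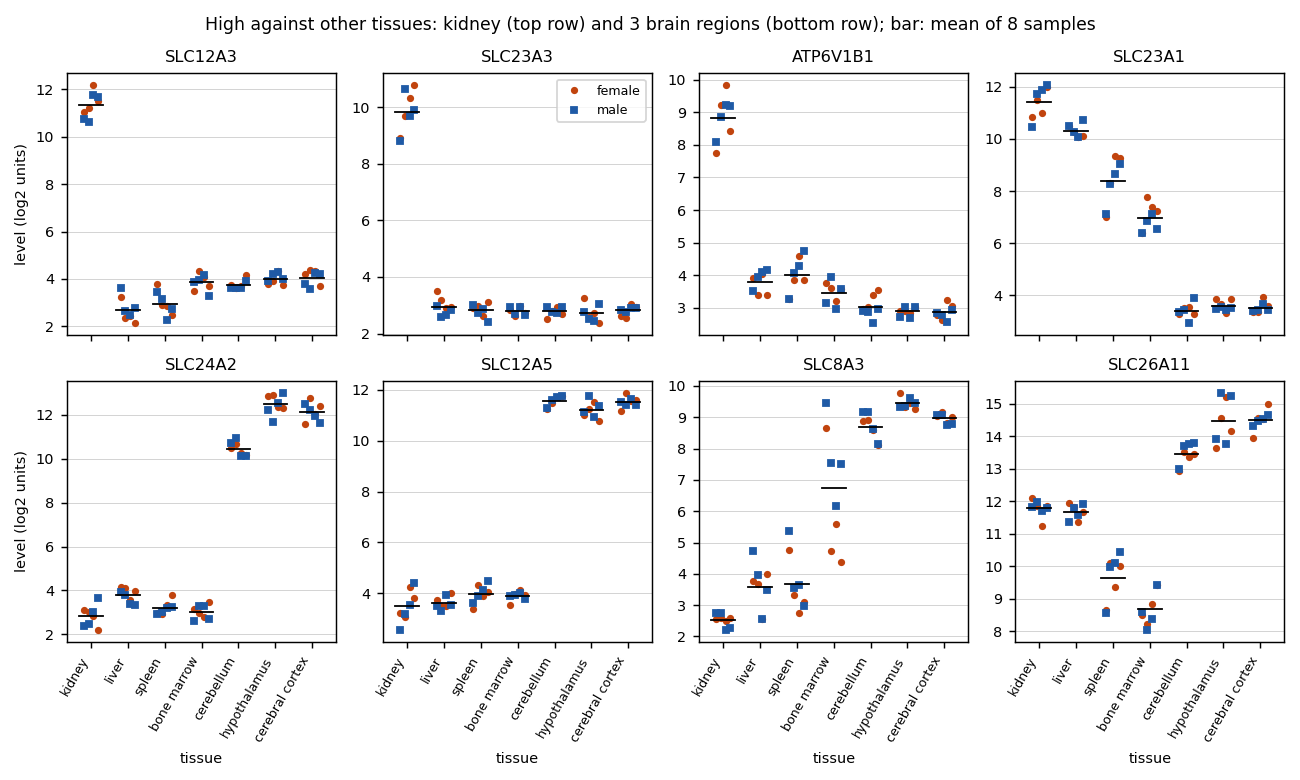
Level in log2 units (vertical axis) of 4 transporters with a large excess in kidney (top row) and 4 in the 3 brain regions (bottom row), in 7 tissues; each point is 1 sample and each bar the mean of 8. SLC23A1 is also high in liver, and SLC8A3 is spread widely in bone marrow, from 4.37 to 9.44.

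In the 3 brain regions, the calcium exchangers SLC24A2 and SLC8A3, the chloride extruder SLC12A5 and several of the broadly expressed V-ATPase subunits were higher than in the mean of the other 4 tissues. Here 21 of the 68 transporters were higher and 10 lower, while 13.4% of all genes were higher and 13.6% lower. The median difference was 0.08 over the 68 and −0.11 over all genes.

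SLC24A2, the potassium-dependent sodium-calcium exchanger of neurons, had a lowest, median and highest level of 10.14, 10.37 and 10.93 in cerebellum, 11.66, 12.47 and 13.02 in hypothalamus and 11.59, 12.12 and 12.77 in cortex. In the other 4 tissues it ran from 2.18 to 4.16, with 2 of 32 arrays well above background, and the difference was 8.48 ± 0.10 (limma, adjusted p = 3.15e-53). SLC12A5 had medians of 11.65, 11.19 and 11.54 in the same regions and was 7.68 ± 0.08 higher. SLC8A3 had 8.74, 9.40 and 9.02 and was 4.90 ± 0.19 higher, with 2 bone marrow samples inside its brain range.

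Of the 18 tested V-ATPase subunits, 9 were higher in brain, led by ATP6V1B2 (3.30), the B subunit of vesicles and lysosomes, with ATP6V0E2 (2.51) and ATP6V0A1 (2.26), and 3 were lower. Of the 7 Na,K-ATPase subunits, 4 were higher and none lower, among them the beta subunits ATP1B1 (2.68) and ATP1B2 (1.45). The sulfate and chloride carrier SLC26A11 was 3.69 higher, the sodium-proton exchanger SLC9A5 3.31, SLC12A2, which loads cells with chloride, 2.81, SLC4A4 2.73 and the ascorbate transporter SLC23A2 2.03. These differences are from the mean of the other 4 tissues, and kidney lay above all 3 brain regions for ATP1B1, with a mean of 14.04 beside 12.35 to 13.63, and for SLC4A4, with 11.57 beside 9.63 to 10.89. ATP1B2 was well above background on 22 of 24 brain arrays and on 5 of the 32 others.

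The 10 that were lower in brain were led by SLC23A1, at 2.94 to 3.94 over the 24 brain samples and 6.38 to 12.07 over the 32 others (−5.77 ± 0.11), with 4 of 24 brain arrays well above background. ATP6V0D2 (−3.01, with 1 of 24 brain arrays well above background), SLC24A6 (−2.19) and SLC4A1 followed. The 24 SLC4A1 arrays of brain were not well above background, and the other tissues were at least 2.7-fold higher on average. No kidney or liver array was well above background for SLC4A1 either, so this rests on bone marrow (mean 7.52) and spleen (4.86). ATP6V0D2 was also not well above background on any spleen array, with a mean of 3.00. SLC24A6, the exchanger of the inner mitochondrial membrane, is another gene measured only by probes marked "Xhyb". The ascorbate transporters differed by tissue, with SLC23A1 above background in kidney, liver, spleen and bone marrow and SLC23A2 at its highest means in the brain regions.

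Liver stood out for how many transporters were low there: 26 of the 68 were lower than in the other 6 tissues and 1 was higher, while 11.6% of all genes were lower and 9.88% higher. The median difference was −0.55 over the 68 and −0.05 over all genes. SLC23A1 was the 1 higher gene, with 10.08, 10.28 and 10.72 (lowest, median, highest), 4.10 ± 0.16 above the other tissues. SLC12A5 had 3.30, 3.53 and 4.02, with 3 of 8 arrays well above background, and was lower by 3.98. SLC24A2 had 3.34, 3.84 and 4.16, with 1 of 8 arrays well above background, and its difference of −3.57 rests on values near the floor. SLC12A2 had 4.41, 5.27 and 5.71 and was lower by 3.26. The lower genes also held 6 V-ATPase subunits, ATP6V0A1, ATP6V0C, ATP6V0E2, ATP6V1A, ATP6V1B2 and ATP6V1E1, and ATP6V1G2, which was not well above background there.

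In spleen 6 of the 68 transporters were higher and 18 lower, beside 8.82% and 10.1% of all genes. SLC24A6 had 9.80, 11.33 and 11.82 (lowest, median, highest), 3.05 ± 0.13 above the other tissues, and did not overlap with their range of 6.59 to 9.64. SLC23A1 (1.84), SLC4A1 (1.47, with 4 of 8 arrays well above background), SCNN1D (1.32), SLC12A9 (1.26) and SLC4A7 (1.26) were the others. Among the lower ones was SLC4A4, which had 4.44, 4.64 and 5.64 and was 4.40 ± 0.11 lower. SLC12A5 (−3.58) was lower too, and so was SLC24A2, which was well above background on 1 of the 8 arrays.

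In bone marrow 4 were higher and 19 lower, beside 10.4% and 12.2% of all genes. SLC4A1, the chloride-bicarbonate exchanger of red cells, had 6.73, 7.62 and 8.32 (lowest, median, highest) and was 4.58 ± 0.28 above the other tissues, beside 5 of 6 erythroid genes that were higher too. ATP6V0D2 was 3.60 ± 0.22 higher and SLC26A6 1.00. The mean of SLC26A6 was 8.68 in bone marrow, 8.68 in cerebellum and 8.66 in kidney, and its call was lost in 4 of 13 alternative settings. SLC24A2 was not well above background on any of the 8 arrays and at least 18.3-fold higher in the mean of the other tissues. SLC4A4 (−3.93) and SLC26A11 (−3.92) were lower as well.

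In bone marrow, ATP6V0D2 and SLC8A3 were set beside genes of other cell types, with no test of the match. ATP6V0D2, the subunit of osteoclasts as well as of intercalated cells, had 9.06 and 7.83 at 1 week, 5.66 and 9.02 at 4 weeks, 6.57 and 7.79 at 2 months and 7.44 and 8.29 at 4 months (female, male). CTSK, the collagenase of osteoclasts, had 13.51 and 12.70, then 10.47 and 13.48, then 11.52 and 12.30, then 12.39 and 13.31 in the same samples. Both genes were lowest in the 4-week female. Of the 4 osteoclast genes on the array, only CTSK is given by sample, and 2 of the 4 were higher in bone marrow than elsewhere. Their mean level ran from 6.32 to 7.27 at 1 and 4 weeks and from 6.70 to 7.70 at 2 and 4 months. Its highest value thus lay in the older samples, while ATP6V0D2 was highest at 1 week.

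SLC8A3, also a muscle gene, had 8.65 and 9.44 in bone marrow at 1 week and between 4.37 and 7.54 in the other 6 samples. TNNC2, a troponin of fast skeletal muscle, had 14.65 and 14.15 at 1 week and between 4.83 and 9.67 after it, and MYLPF, a myosin light chain of muscle, had 12.15 and 11.73 and then between 3.12 and 5.81. CASQ1, a calcium binder of muscle, had 6.97 and 6.57 and then between 3.99 and 4.18 up to 4 months, while RYR1, the calcium release channel of muscle, lay between 3.13 and 3.69 over these ages and was highest at 4 weeks. A list of 12 muscle genes was made after these values were seen, with these 4 on the array, and the part of muscle in the bone marrow levels of SLC8A3 was not tested.

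Changes after 4 weeks of age were tested in each tissue as the 4 older samples (2 and 4 months) minus the 4 younger ones (1 and 4 weeks). In kidney, the salt carrier SLC12A3 and the channel subunits SCNN1D and SCNN1G rose, and the sodium-potassium-chloride cotransporter SLC12A2 fell. Of the 68 transporters, 7 rose and 2 fell, while 3.71% of all genes rose and 4.73% fell. The median change was 0.13 log2 units over the 68 and 0.02 over all genes.

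SLC12A2, the chloride loader of the basolateral membrane, had levels of 8.19 and 8.18 (female, male) at 1 week, 7.51 and 7.69 at 4 weeks, 6.67 and 6.83 at 2 months and 6.89 and 6.71 at 4 months, and 6.48 in the 2-year male. All older samples lay below all younger ones, and the gene fell by 1.12 ± 0.18 log2 units (2.17-fold, limma, adjusted p = 0.00919). ATP6V1B2 had 9.68 and 9.56, then 9.23 and 9.34, then 8.72 and 8.62, then 8.93 and 8.54 at the same ages, and 9.44 at 2 years. It fell by 0.75 ± 0.15 (adjusted p = 0.0193) up to 4 months, with no overlap, and its 2-year level lay within the range of the younger samples.

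SCNN1D, the delta subunit of the epithelial sodium channel, had 6.94 and 6.50 at 1 week, 6.25 and 6.94 at 4 weeks, 7.86 and 7.93 at 2 months, 7.47 and 7.62 at 4 months and 8.62 at 2 years. It rose by 1.06 ± 0.19 (adjusted p = 0.014). SLC12A5 was not well above background on any of the 4 younger arrays and was so on 3 of the 4 older ones, at 4.24 and 3.54 at 2 months, 3.83 and 4.42 at 4 months and 5.00 at 2 years. The older kidneys were at least 1.53-fold higher (adjusted p = 0.0284), at a low level. SLC12A9, an orphan of the cotransporter family, had 9.40, 9.23, 9.28 and 9.23 in the younger samples and 10.49 and 10.56 at 2 months, 9.54 and 10.29 at 4 months and 10.19 at 2 years. It rose by 0.94 ± 0.21 (adjusted p = 0.029).

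SLC12A3 had 11.06 and 10.74 at 1 week, 11.20 and 10.61 at 4 weeks, 12.18 and 11.77 at 2 months and 11.49 and 11.67 at 4 months, a rise of 0.87 ± 0.19 (adjusted p = 0.0249). Its 2-year level of 11.20 was again that of the younger samples. The adaptor SLC9A3R1 (0.82, adjusted p = 0.0451), the proteolipid ATP6V0C of the V-ATPase rotor (0.72, adjusted p = 0.0469) and SCNN1G (0.64, adjusted p = 0.0299) also rose. The groups did not overlap in 8 of the 9 called genes, SLC9A3R1 being the exception, nor in 95.3% of all genes called. In ATP6V0C, SLC12A9 and SLC9A3R1 the 4-month female lay near the younger samples.

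Some markers of the segments that hold these transporters moved as well. PVALB of the distal convoluted tubule fell by 2.70 ± 0.46, from 9.57 to 11.18 in the younger samples to 6.97 to 8.61 in the older ones, while CALB1 of the same tubule rose by 0.65. The mean level of the 3 markers of this tubule ran from 7.44 to 7.96 in the younger and 6.70 to 7.27 in the older samples. AQP2 rose by 1.14, the 1 called of 2 markers of the principal cell, and RHCG by 1.20, the 1 called of 4 of the intercalated cell. The part of cell makeup in the transporter changes was not tested. On the partner lists, 1 of 9 carbonic anhydrases rose, CA9 (1.15), and 2 of 10 proton pump partners, among them RHBG (0.92). Of 5 FXYD genes 1 rose, FXYD2 (0.71), and 1 fell, FXYD6 (−1.33). Of 10 genes of phosphate and calcium control 2 rose, among them TRPV5 (1.61), and 1 fell, FGFR1 (−0.56). None of the 9 salt control genes or the 11 channels was called, while 3.71% of all genes rose and 4.73% fell.

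The kidney count depended on single samples. It was 2 without either 1-week sample, 5 without either 4-week sample, 3 without either 2-month sample, 14 without the 4-month female, 2 without the 4-month male, and 0 without both 1-week samples. The share of all genes called moved with it, from 8.44% to between 1.58% and 2.28% in the fits with 2 calls and to 19% without the 4-month female.

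**Figure D3:**
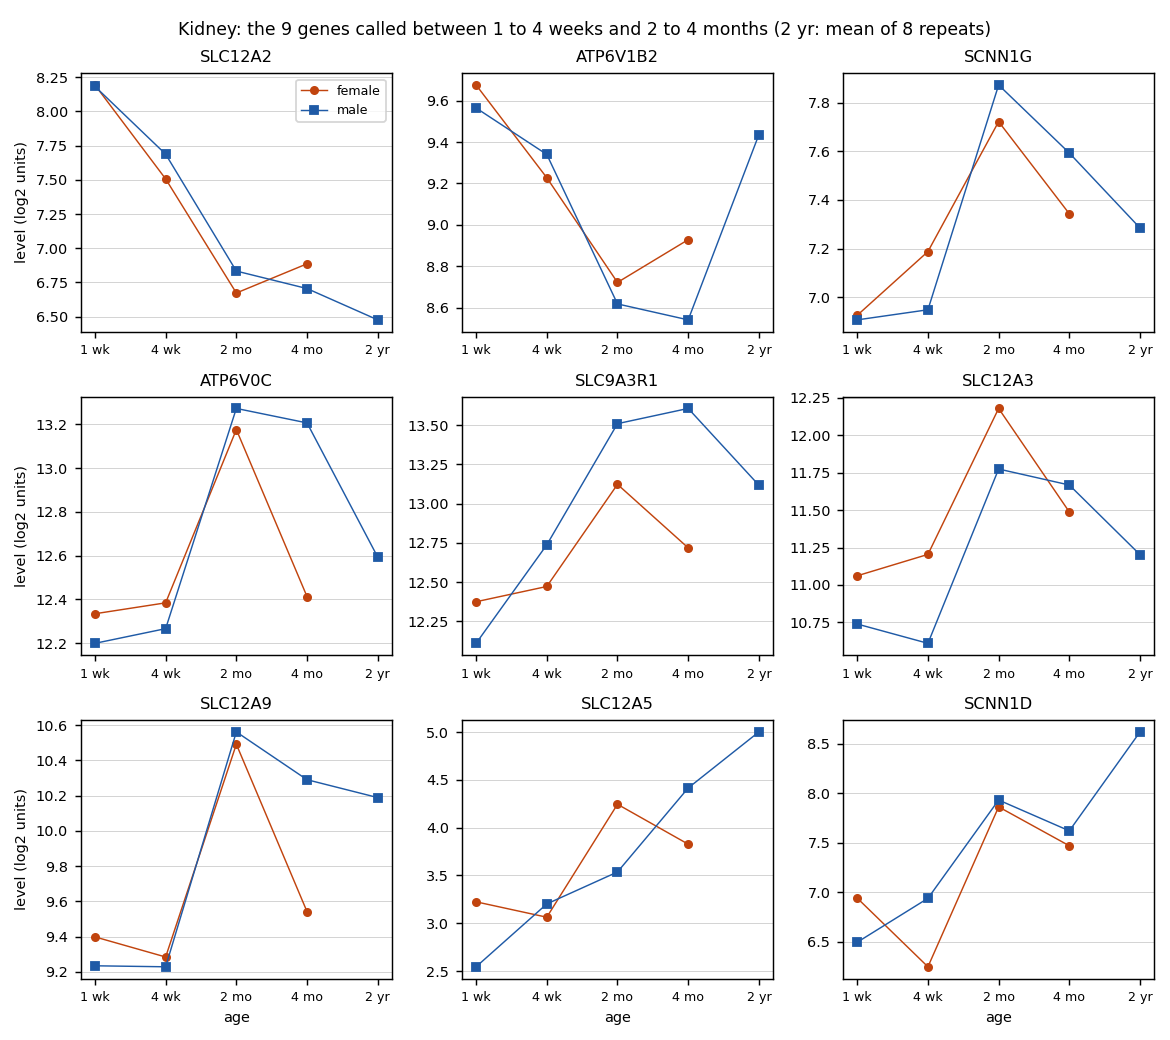
Level in log2 units (vertical axis) of the 9 transporters that rose or fell in kidney after 4 weeks, by age, with 1 female and 1 male sample per age up to 4 months and the mean of 8 arrays of 1 male at 2 years. SLC12A2 goes from 8.19 and 8.18 at 1 week to 6.48 at 2 years, and ATP6V1B2 returns from 8.54 at 4 months to 9.44 at 2 years.

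The 2-year kidney was hybridised on 8 arrays, which shows how precise a single array is and holds no spread between animals. The SD over these 8 arrays was 0.07 for SLC12A2 (6.35 to 6.57), 0.05 for SLC12A3 (11.13 to 11.26), 0.04 for SCNN1D and 0.20 for the low SLC12A5, beside a median SD of 0.116 over all genes.

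Whether an age change in kidney differed from the mean change of the other 6 tissues was tested on its own. In kidney 5 transporters changed more upward and 2 more downward, while 2.49% and 2.14% of all genes did. SLC12A3 (1.02 ± 0.24, adjusted p = 0.00865), SLC26A6 (0.89), SLC12A5 (0.83), ATP6V0C (0.65) and SCNN1G (0.58) were the upward ones. For SLC12A3 the difference exceeded the change within kidney (0.87). It changed by −0.51 in liver and −0.74 in spleen, where no array was well above background. SLC12A2 (−0.90 ± 0.22, adjusted p = 0.00995) and ATP6V1B2 (−0.72) were the downward ones. Without the 1-week samples none of these calls remained. SLC26A6, a chloride-oxalate and bicarbonate exchanger of the proximal tubule, had 7.91, 7.61, 8.54 and 8.59 in the younger kidneys and 9.12, 9.61, 8.36 and 9.57 in the older ones, and did not pass the test within kidney. For SCNN1D, SLC12A9 and SLC9A3R1, which rose in kidney, a difference from the other tissues did not pass the test.

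In spleen, the sodium-proton exchanger SLC9A5, the channel subunit SCNN1D and the adaptor SLC9A3R1 rose after 4 weeks. Of the 68 transporters, 3 rose and 1 fell, beside 1.54% and 1.57% of all genes, and the median change was 0.13 over the 68 and 0.03 over all genes.

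SLC9A5, a sodium-proton exchanger best known from neurons, had 6.92 and 7.08 at 1 week (female, male), 7.57 and 7.39 at 4 weeks, 8.25 and 8.55 at 2 months and 8.63 and 8.24 at 4 months, and 7.74 at 2 years. It rose by 1.18 ± 0.18 log2 units (2.26-fold, limma, adjusted p = 0.0167). SCNN1D rose by 0.93 ± 0.20 (adjusted p = 0.0425), from 7.29, 7.10, 7.59 and 7.49 to 7.81, 8.58, 8.40 and 8.41. SLC9A3R1 rose by 0.69 ± 0.14 (adjusted p = 0.0357). The groups did not overlap in these genes, nor in any other of the 739 genes called in spleen. The count of transporters was 1 without either 1-week sample, 8 without the 4-week female, 0 without the 2-month male or the 4-month female and 1 without the 2-month female or the 4-month male, while the share of all genes called ran from 0.312% without the 4-month female to 6.18% without the 4-week female.

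Against the other tissues, 9 transporters changed more upward in spleen and 5 more downward, beside 6.17% and 5.55% of all genes. The downward ones included SLC4A1 (−1.98 ± 0.56, adjusted p = 0.0136), ATP6V0A1 (−1.06), SLC12A3 and SLC26A8. SLC4A1 had 7.82 and 7.75 at 1 week, 3.57 and 4.57 at 4 weeks, then between 3.32 and 4.60, and 3.86 at 2 years. ATP6V0A1, a subunit of the membrane sector of the V-ATPase, had 12.46 and 12.19 at 1 week and between 9.78 and 10.21 from 4 weeks to 4 months. Both genes thus had their drop between 1 and 4 weeks, within the younger group. SLC12A3 was not well above background on any of the 8 spleen arrays, and SLC26A8 on 2 of the 4 younger and none of the older ones.

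The upward ones were led by SLC23A1 (1.27 ± 0.29, adjusted p = 0.00242), with 7.00 and 7.12 at 1 week, 8.32 and 8.25 at 4 weeks, and 8.67 to 9.35 at 2 and 4 months, but 6.76 at 2 years. SLC9A5 (1.03), SLC4A11 (0.97), SLC12A9 (0.97), SLC24A6 (0.81), SLC4A7 (0.75), ATP6V0A2 (0.73), SLC12A2 (0.70) and ATP6V0E2 (0.48) followed.

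Genes of red cell precursors also differed with age in the same samples. The mean level of 6 erythroid genes in spleen ran from 7.80 to 10.6 at 1 and 4 weeks and from 6.66 to 7.11 at 2 and 4 months, and was 8.05 at 2 years, while the carbonic anhydrases CA2 and CA1 fell by 4.68 and 3.89. Of the 6 erythroid genes, 1 passed the test within spleen, EPB42, which fell, and 4 changed more downward in spleen than in the other tissues. The mean of 3 macrophage genes ran from 8.84 to 10.1 in the younger and from 10.3 to 10.7 in the older samples. The part of these cells in the transporter changes was not tested.

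**Figure D4:**
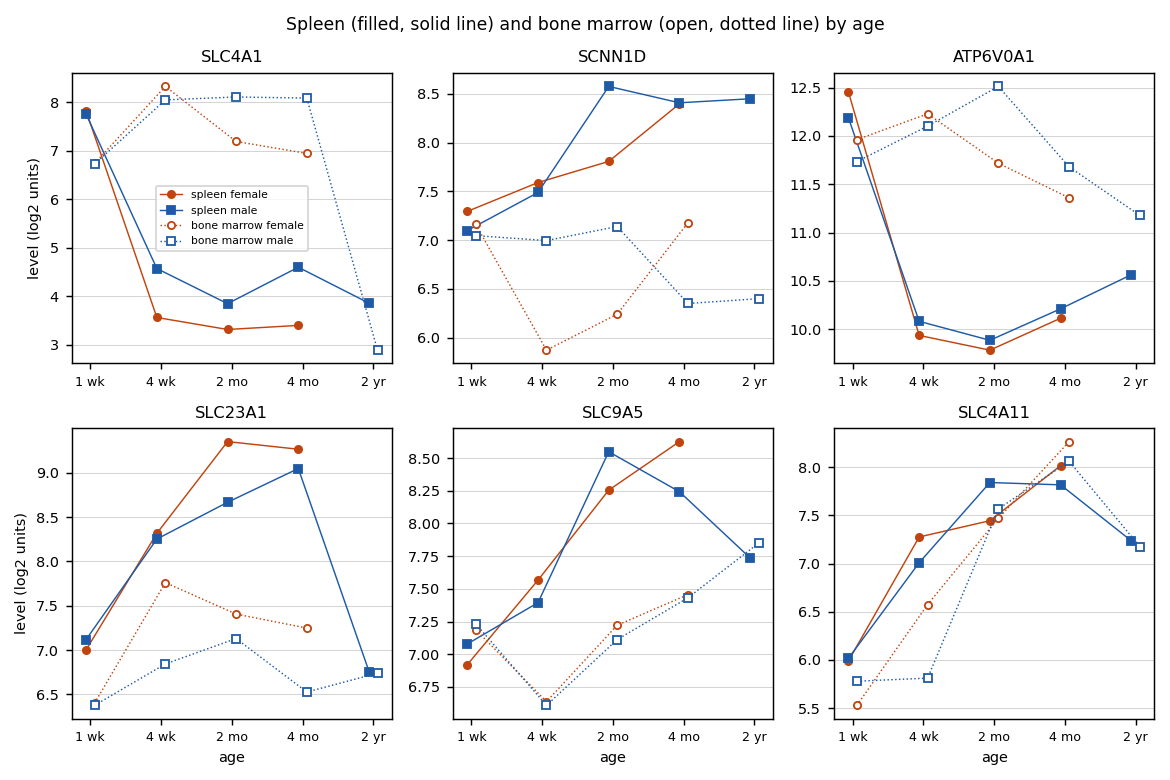
Level in log2 units (vertical axis) by age of 6 transporters in spleen (filled symbols, solid lines) and bone marrow (open symbols, dotted lines), with 1 sample per point. SLC4A1 goes from 7.82 and 7.75 to 3.57 and 4.57 between 1 and 4 weeks in spleen, while in bone marrow it stays between 6.73 and 8.32 up to 4 months and is 2.89 at 2 years.

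In bone marrow, 1 transporter rose and none fell, beside 0.586% of all genes that rose. SLC4A11, a proton carrier of the bicarbonate transporter family, had 5.53 and 5.78 at 1 week, 6.58 and 5.81 at 4 weeks, 7.47 and 7.57 at 2 months, 8.27 and 8.06 at 4 months and 7.18 at 2 years. It rose by 1.92 ± 0.26 log2 units (3.78-fold, limma, adjusted p = 0.0189), but was not called without either 1-week sample, the 4-week male or either 4-month sample. Against the other tissues it was the 1 transporter that changed more upward in bone marrow (1.80 ± 0.29), and ATP6V1E1, a stalk subunit of the V-ATPase, was the 1 that changed more downward (−0.72 ± 0.21, adjusted p = 0.0385), beside 2.02% and 1.69% of all genes. ATP6V1E1 ran from 11.07 to 11.49 in the younger samples and from 9.22 to 10.89 in the older ones, with the 2-month male lowest.

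In liver, 1 transporter fell and none rose, beside 1.13% of all genes that fell. SLC12A2 had 5.50 and 5.71 at 1 week, 5.67 and 5.53 at 4 weeks, 4.87 and 4.69 at 2 months and 4.41 and 5.03 at 4 months, and 4.55 at 2 years. It fell by 0.85 ± 0.16 (limma, adjusted p = 0.0357) and kept the call when the 2-month female was left out, but not when any other single sample was. SLC4A4 changed more upward in liver than in the other tissues (0.69 ± 0.20), and SCNN1D (−1.10 ± 0.33) and ATP6V0E2 (−0.57 ± 0.16) more downward, beside 2.79% and 2.08% of all genes. SLC4A4 had 7.87, 7.88, 8.05 and 8.03 in the younger livers and 8.33, 8.34, 8.39 and 8.51 in the older ones, without overlap.

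In cerebellum, ATP6V0D1, a subunit of the V-ATPase membrane sector, had 12.39 and 12.22 at 1 week, 12.28 and 12.33 at 4 weeks, 12.70 and 12.73 at 2 months and 12.81 and 12.87 at 4 months. It rose by 0.47 ± 0.10 log2 units (limma, adjusted p = 0.045). SLC24A2 had 10.48 and 10.72, then 10.70 and 10.93, then 10.27 and 10.15, then 10.15 and 10.14, and fell by 0.53 ± 0.12 (adjusted p = 0.0496). These were the only 2 of the 68 called, beside 0.953% of all genes that rose and 1.32% that fell. Of the 8 fits without 1 sample, 6 called none: those without either 1-week sample, the 4-week male, the 2-month female or either 4-month sample. Without the 4-week female 3 other transporters were called, beside 3.91% of all genes. Without the 2-month male 5 were called, 1 of them among these 2, beside 3.35% of all genes. The astrocyte gene AQP4 fell by 1.01 in the same comparison, and the mean of 2 oligodendrocyte genes ran from 8.89 to 9.20 in the younger and from 8.11 to 8.63 in the older samples. Their part in the transporter changes was not tested.

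No transporter was called by age in cerebral cortex or hypothalamus in the limma fits. In cortex 15 of the 68 (22.1%) had an unadjusted p under 0.05, beside 18.6% of all genes, and 218 and 182 of all genes were called higher and lower. In hypothalamus 2 of the 68 had an unadjusted p under 0.05, beside 9.55% of all genes, and none of the 23722 genes tested was called. Over all 7 tissues, 14 of the 68 transporters (20.6%) were called by age in at least 1 tissue, beside 14.8% of all genes.

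No transporter was called between the sexes in limma over the 28 pairs of the same tissue and age, where 25 and 38 of all genes were called higher and lower in males. An unadjusted p under 0.05 was found for 4 (5.88%), beside 8.57% of all genes: SLC4A9 (0.38 ± 0.12 higher in males, adjusted p = 0.274), SLC8A3 (0.34), SLC26A10 (0.17) and ATP6V1G3 (0.12).

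In testis, with 1 sample per age and no test, the sodium pump subunit ATP1A4 and the channel subunit SCNN1D differed most between the samples before and after 4 weeks. A gene was counted when all 3 samples from 2 months to 2 years lay at least 1 log2 unit above, or below, both samples at 1 and 4 weeks. After 4 weeks 7 transporters lay higher and 10 lower, beside 9.99% and 9.3% of all genes, so that the shares were near those of all genes for the higher ones and above them for the lower ones (10.3% and 14.7%).

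ATP1A4, the sodium pump alpha subunit of sperm, had 2.83 at 1 week and 2.73 at 4 weeks, where it was not well above background, and 8.99, 9.12 and 8.91 at 2 months, 4 months and 2 years. It was at least 67.8-fold higher in the older testes, and stayed between 2.95 and 3.03 in ovary. All 4 probes of ATP1A4 carry the mark "Xhyb". SCNN1D had 6.82 and 8.43 and then 11.95, 12.43 and 11.78, and between 4.43 and 5.91 in ovary. SLC4A11 had 8.55 and 8.22 and then 10.42, 11.43 and 10.27, and ATP6V1B1 was at least 3.82-fold higher in the older testes, at 4.87, 5.19 and 5.21. SLC4A9, SLC12A5 and ATP6V1C1 were the other 3.

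Among the lower ones, ATP6V0D1 had 12.97 and 13.08 and then 11.46, 11.39 and 11.67, and ATP1B1 had 9.75 and 10.38 and then 8.22, 8.50 and 7.92. ATP6V0E2, SLC24A2, SLC9A3R2, SLC12A9, SLC12A2 and SLC4A4 were lower too. In ovary ATP6V0D1 had 11.60, 11.36, 11.57 and 11.72 from 1 week to 4 months and ATP1B1 had 10.09, 10.21, 10.08 and 9.29.

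Marker genes of testis cell types also differed between these ages. The mean level of 5 spermatid genes ran from 3.80 to 3.94 at 1 and 4 weeks and from 12.9 to 13.3 at 2 and 4 months, and was 13.0 at 2 years, while 3 Sertoli and Leydig cell genes ran from 8.89 to 9.00 and then from 7.36 to 7.61. The part of these cells in the transporter levels was not tested.

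**Figure D5:**
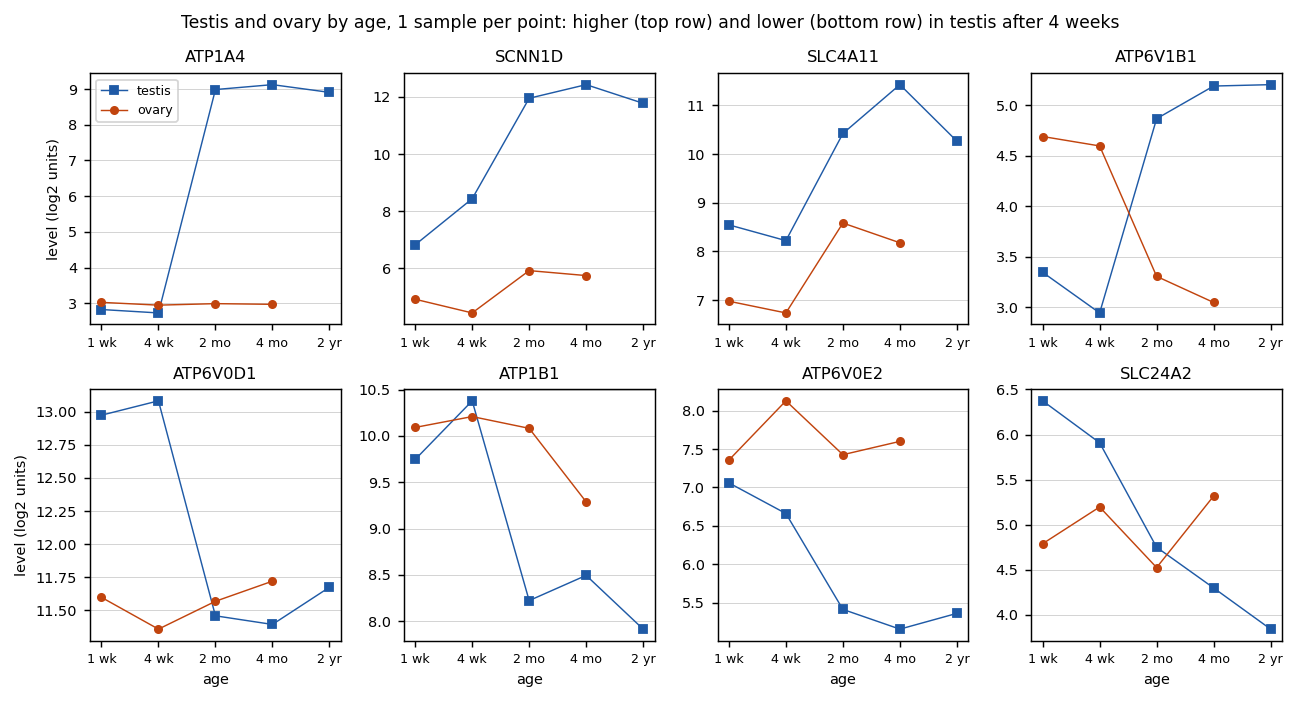
Level in log2 units (vertical axis) by age in testis (squares) and ovary (circles, to 4 months), 1 sample per point, for 4 transporters with a gap upward (top row) and 4 with a gap downward (bottom row) in testis after 4 weeks. ATP1A4 goes from 2.73 at 4 weeks to 8.99 at 2 months in testis and stays between 2.95 and 3.03 in ovary.

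At 2 years, in 1 male and without a test, some levels in spleen and bone marrow lay outside the range of the samples up to 4 months. SLC23A1 was 6.76 in spleen, where the samples up to 4 months ran from 7.00 to 9.35. SLC4A1 was 2.89 in bone marrow beside the low erythroid genes of that sample. SLC26A11 was 11.64 there, above its range of 8.03 to 9.41 up to 4 months. A single array of the renal pelvis of the 2-year male was set beside the kidney of that age. SLC26A4 was 5.67 log2 units lower in the pelvis, SLC12A3 4.27 and SLC4A4 3.51 lower, while SLC4A7 was 2.53 and SLC4A11 2.25 higher.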

How the data were processed

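The authors deposited 1 scanner output per array, made with Agilent Feature Extraction 11.5.1.1 per the submitters' processing notes, on a custom porcine design, with the raw median intensity of each spot and a processed intensity, neither of them normalized between arrays. They also deposited a table of log2 values, whose columns all have a median of 4.57. It was used only as an alternative, and its lowest rank correlation with the scanner values of the same array was 0.957; its exact normalization was not worked out. The study's methods name a robust multi-array procedure with quantile normalization.

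The raw median intensity was therefore background corrected (normexp, offset 0) and quantile normalized in limma 3.58.1 under R 4.3.3, and log2 values were averaged over spots, then over the probes of each gene. Between 10 and 590 outlier spots per array were left out. Names come from the files, with RefSeq accessions kept whole. A gene was called in limma with Benjamini-Hochberg adjustment over 23722 genes at 0.05, with a difference of at least 1 log2 unit for tissues (age as covariate). Groups came from the labels. Fewer than 9 arrays per group limit the precision. Bounds ("at least") are given where no array of the dimmer group was well above background, and use the lowest signal that was so on those arrays. Where some arrays were, the difference is that of the fit.

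Some genes are counted but not reported here by name. The transporters and the gene lists were chosen with earlier results of these data known. Values by sample are given for up to 4 of the reported transporters per direction and comparison, the largest first, and other genes of a list for at most 4. A few further transporters and marker genes printed beside these were chosen after their values were seen. The fits were tested on simulated data. The plots were made with Python 3.11.15 and matplotlib 3.10.9. Alternatives were other intensities, offsets, scalings, filters and probe summaries, blocks for sex, slide and scan date, and samples left out.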

Additional observations from a re-analysis of the deposited data

Results flagged for a closer look

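The 2-month female cerebellum had 10.27 log2 units of SLC24A2, apart from the 10.14 and 10.15 of the other 3 older samples. It was the 1 of 53 groups of 4 or 8 samples in which a sample lay apart in this way, and chance gives about 1 in 20.

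The change from the younger to the older samples was set against the mean change of the other 6 tissues, by a limma test of the difference itself. It differed in pairs of a gene and a tissue that included these 24. In kidney these were SLC12A3 (1.02 log2 units), SLC26A6 (0.89), SLC12A5 (0.83), ATP6V0C (0.65), SCNN1G (0.58), SLC12A2 (−0.90) and ATP6V1B2 (−0.72). In liver they were SLC4A4 (0.69), SCNN1D (−1.10) and ATP6V0E2 (−0.57). In spleen they were SLC23A1 (1.27), SLC9A5 (1.03), SLC4A11 (0.97), SLC12A9 (0.97), SLC24A6 (0.81), SLC4A7 (0.75), ATP6V0A2 (0.73), SLC12A2 (0.70), ATP6V0E2 (0.48), SLC4A1 (−1.98), ATP6V0A1 (−1.06) and SLC26A8 (−0.77). SLC12A3 also passed the test in spleen but was not well above background on any array there, and SLC26A8 was so on 2 of 8. In bone marrow they were SLC4A11 (1.80) and ATP6V1E1 (−0.72).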

How the results depend on the processing

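Of 918 values of named genes under an alternative, 773 kept direction and call, 144 kept the direction but not the call, and 1 turned: ATP6V0A1 in spleen against the other tissues was 0.11 (adjusted p = 0.879) without the 1-week samples. Of 248 counts of called transporters, 173 stayed within 1.5 times the main count. The cause of the others was not tested except where fewer samples entered.

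Leaving out 1 sample gave 2 to 14 age calls in kidney, 0 to 1 in liver, 0 to 8 in spleen and 0 to 1 in bone marrow. It gave 0 to 5 in cerebellum, the 5 without the 2-month male, and none in cortex and hypothalamus. The share of all genes called ran from 1.58% to 19% in kidney, 0.169% to 2.27% in liver and 0.312% to 6.18% in spleen. In bone marrow it ran from 0.0422% to 1.83%, and in cerebellum from 0.0717% to 3.91%. Without the 1-week samples, chosen after seeing the data, 0 were called in kidney, liver, bone marrow and cerebellum. Of all genes, 0.202%, 0.0843%, 0.0295% and 0.164% were called there. Against the other tissues 1 was called in kidney, which was not among its main calls, 0 in liver and 3 in spleen, 1 of the latter among the main calls of spleen. The shares of all genes were 0.266%, 1.07% and 3.76%. With sex as a replicate block the count was 0 in liver, 1 in spleen and 1 in cerebellum, beside 1.02%, 1.22% and 1.93% of all genes. No other count moved by over 1.5 times, and the labels do not say that a number pairs samples. One fit over the 56 samples called 14 in kidney, 2 in liver, 16 in spleen, 4 in bone marrow, 1 in hypothalamus and 1 in cortex. That fit called 15.1%, 8.2%, 18.5%, 7.5%, 0.181% and 0.249% of all genes in the same order. With the 2-year male 2 were called in spleen, 0 in bone marrow and 1 in hypothalamus, beside 1.1%, 0.0253% and 0.0843% of all genes. Scan date as a block, chosen after seeing the data, gave 5 in cerebellum, beside 4.43% of all genes.

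The processed intensity and the deposited log2 table each gave 0 in cerebellum, 1 in cortex and 4 in kidney against the other tissues. They called 1.07% and 1.02%, 2.98% and 2.96%, and 6.29% and 6.12% of all genes there. An offset of 50 gave 2 by age in liver and in cortex, 14 by tissue in spleen, 15 in bone marrow and 8 in testis. Beside these stood 1.53%, 4.7%, 9.81%, 11.9% and 10.6% of all genes. Scaling to the 75th percentile gave 0 in cerebellum, the median of probes 1, and the filter on low values 4, and 1 in cortex. All genes were called at 1.2%, 2.27%, 3.58% and 3.42% in that order. At 2 log2 units 17 were called in kidney, 14 in liver, 10 in spleen, 9 in bone marrow, 20 in brain and 3 in testis. Of all genes, 6.47%, 8.46%, 6.39%, 8.08%, 10.9% and 6.07% passed at that size. Slide as a block could not be fitted within a tissue, since no slide held over 1 array of it.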
